A study of Mus musculus with 10 samples.

Results

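The 10 genes described here build or regulate the junctions of epithelial cells: the cadherins Cdh1 and Cdh3, the adhesion molecule Epcam, the splicing factors Esrp1 and Esrp2, the claudins Cldn3, Cldn4, Cldn6 and Cldn7, and occludin (Ocln). They were taken as a named list from the 21883 protein-coding genes of the gene table, and every ATAC-seq peak from 30 kb before to 30 kb after each of them was collected in mm10. These windows held 140 of the 208851 elements of the genome, where an element is a stretch covered by merged peaks of the 10 libraries. Each of the 10 genes had a gene-end peak in at least 1 library, so none was lost to a filter.

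ATAC-seq uses the transposase Tn5 to insert adapters into open DNA, and its peaks mark accessible chromatin. The series holds 10 mouse libraries, 2 at each of 5 stages, all on a C57BL/6 x 129 background. Embryonic fibroblasts (MEF), and the cells derived from them, carried a polycistronic Oct4, Klf4, Sox2 and Myc cassette (OKSM) in Col1a1 and the M2rtTA activator in ROSA26. The MEF libraries come from these cells before induction, in fibroblast medium without doxycycline. DAY3, DAY6 and DAY9 cells had spent 3, 6 and 9 days in stem cell medium with doxycycline at 1 ug/ml and ascorbic acid at 50 ug/ml. DAY6 and DAY9 cells were sorted for SSEA1, a surface marker of cells on the way to pluripotency, whereas MEF, DAY3 and ESC cells were not sorted. The embryonic stem cells (ESC) are the single line V6.5, for which the labels name neither the cassette nor doxycycline, grown with LIF on irradiated feeder cells. Day and sorting therefore change together between DAY3 and DAY6, and their parts in any difference between these stages cannot be told apart. The same holds for stage, cell line, cassette, sorting and culture conditions between DAY9 and ESC. Between MEF and DAY3, day changes together with the medium, doxycycline and ascorbic acid.

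Fibroblasts that are reprogrammed pass through a mesenchymal-to-epithelial transition, in which they lose migratory features and build adherens and tight junctions. Cadherins link neighbouring cells at adherens junctions, and claudins and occludin seal the space between them at tight junctions. Esrp1 and Esrp2 direct the epithelial pattern of splicing, and repressors such as Snail and Zeb factors, which bind E-boxes, are known to hold Cdh1 and other epithelial genes silent in mesenchymal cells. Peak lists show where DNA was accessible and not how much RNA a gene made.

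The lists held 45497 to 88980 peaks, and the DAY3 lists were the shortest. The read depth of the libraries is not given in the sources used here. The background pileup recovered from the lists ranged from 2.327 (DAY6 replicate 2) to 8.322 (MEF replicate 2), so the fold a site needed to reach the lists' p-value limit at that background ranged from 2.57 to 3.61. A missing peak therefore means that no signal was detectable at this depth and limit, not that the site was closed. The stage markers varied with the labels: of 12 pluripotency genes, 2 had an open gene end in MEF and 11 in ESC. Of 13 fibroblast genes, 9 were open at a gene end in MEF and 6 in ESC. Among the fibroblast genes, Postn and Col3a1 had peaks there in both MEF libraries and in no other library. Col1a2, Col5a2, Twist1 and Snai2 had them in all 10 libraries, and Lum in none. Prrx1 and Dcn had a peak in only 1 MEF library and in both DAY9 libraries.

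Promoter sequences are shown for 4 of the genes, because their gene ends were first open after the MEF stage and the peaks cover the sequence. The earliest to open come first, then the order of the gene list, up to 4 with an entry, which leaves out Cldn6 and Ocln. Each is the stretch of 250 bases before an annotated start in the GRCm38.p6 (mm10) build, from RefSeq, written 5′ to 3′ on the strand of the gene. Capitals mark matches, on either strand, to the E-box CACCTG bound by Snail and Zeb factors, to the KLF site CCACCC and to the AP-1 site TGANTCA. The stretches are chr5:134985964-134986213 (+) for Cldn3, chr17:87635729-87635978 (+) for Epcam, chr5:134946935-134947184 (-) for Cldn4 and chr11:69965171-69965420 (+) for an inner start of Cldn7.
Cldn3: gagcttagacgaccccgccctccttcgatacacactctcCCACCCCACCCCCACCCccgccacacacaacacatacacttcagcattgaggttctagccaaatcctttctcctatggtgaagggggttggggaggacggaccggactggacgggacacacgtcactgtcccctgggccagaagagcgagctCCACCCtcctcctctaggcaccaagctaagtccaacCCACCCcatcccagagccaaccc
Epcam: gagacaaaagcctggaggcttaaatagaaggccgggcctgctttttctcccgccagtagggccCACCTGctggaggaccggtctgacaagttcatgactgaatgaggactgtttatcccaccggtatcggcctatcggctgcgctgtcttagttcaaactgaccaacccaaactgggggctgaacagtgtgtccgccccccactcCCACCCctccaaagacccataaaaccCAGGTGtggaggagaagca
Cldn4: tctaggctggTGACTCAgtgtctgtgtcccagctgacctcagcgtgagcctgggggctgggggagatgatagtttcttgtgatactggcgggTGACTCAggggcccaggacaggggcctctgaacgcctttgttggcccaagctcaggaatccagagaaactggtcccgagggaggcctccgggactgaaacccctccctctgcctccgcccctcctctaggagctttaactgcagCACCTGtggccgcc
Cldn7: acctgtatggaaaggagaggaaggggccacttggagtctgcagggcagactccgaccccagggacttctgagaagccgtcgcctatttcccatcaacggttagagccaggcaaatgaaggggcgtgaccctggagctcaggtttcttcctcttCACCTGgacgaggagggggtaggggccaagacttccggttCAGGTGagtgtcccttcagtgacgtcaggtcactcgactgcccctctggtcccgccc
The Cldn3 promoter held no CACCTG and 5 matches to CCACCC, at 211, 206, 200, 59 and 23 bases before the start. The matches at 211 and 206 share a base. Epcam held CACCTG at 187 and 19 bases before its start, Cldn4 at 14 bases, and Cldn7 at 97 and 57 bases. Cldn4 also held TGANTCA at 240 and 158 bases before its start.

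Over the members with an entry in the RefSeq promoter table, which are 6 of 10, a CACCTG match stood in the promoter of 5, beside 19.4% of the 27025 genes with an entry. These 27025 genes were not limited to protein-coding genes, unlike the gene backgrounds of the other comparisons. CCACCC stood in 4 of the 6, beside 30.6% of genes, and the GC box GGGCGG in all 6, beside 35.4%. TGANTCA stood in 1 of the 6 (7.82% of genes), and neither TATAAA (14.3%) nor the GRHL site AACCNGTT (2.0%) was found in any. Both strands were searched, no match overlapped a match to another motif, and a gene with several starts was counted once if any of them held the motif. These are letters in a window, with no measurement of a factor bound to them. The table used here has no entry for Cdh1, Cdh3, Esrp1 and Esrp2.

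The first comparison asked when the gene ends opened. A gene end is the stretch within 1 kb of either end of the gene, a stage counts as open when both of its libraries have a peak there, and a stage gained a site when both of its libraries and neither library of the earlier stage had one. The gene ends of the 10 genes opened in a narrow interval: MEF had 1 of them open, DAY3 had 2, DAY6 had 9, DAY9 all 10, and ESC again 9. Over all protein-coding genes the shares open at these stages were 55.6%, 54.9%, 59.5%, 63.2% and 62.3%. Between DAY3 and DAY6, 5 genes gained a gene-end peak (Cdh1, Cdh3, Cldn4, Cldn7 and Ocln), beside 3.08% of all genes. Esrp1 and Cldn3 were gained at DAY3 against MEF, beside 1.19% of all genes, and Cldn6 at DAY9 against DAY6, beside 1.56%. No gene was lost at DAY3, DAY6 or DAY9 against the stage before, beside 2.25%, 0.324% and 0.27% of all genes. None was gained in ESC against DAY9, beside 2.1%. From MEF to ESC, 6 of the 10 were gained, beside 5.2%, and none was lost, beside 1.44%. A two-sided exact test of 2 against 2 libraries cannot go below 0.333, so these calls carry no test.

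**Figure D1:**
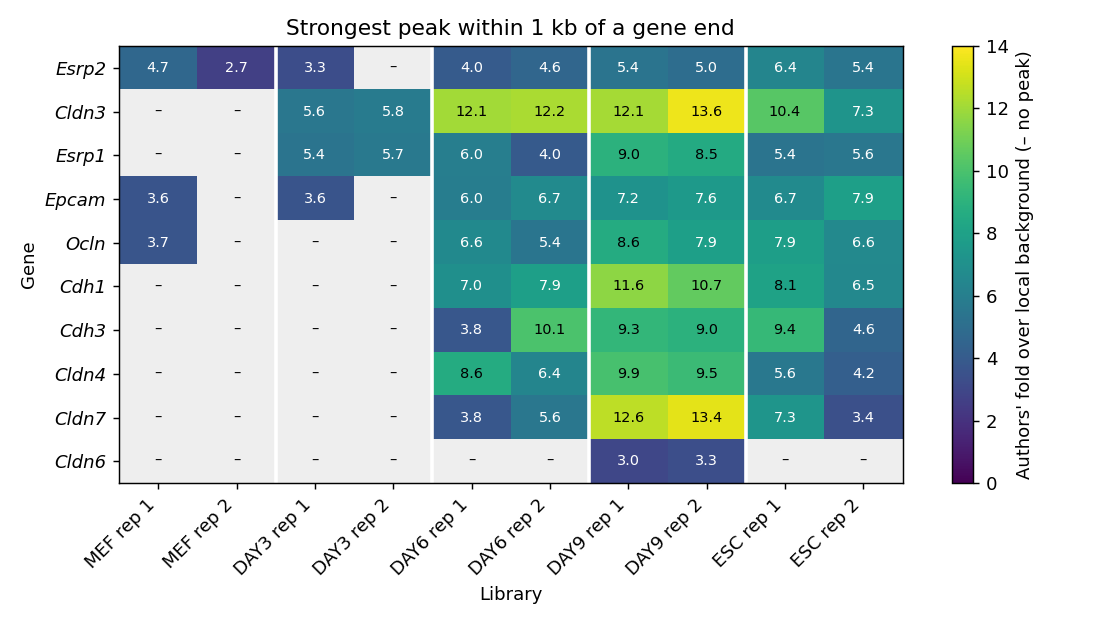
The authors' fold over local background of the strongest peak within 1 kb of a gene end, with genes in rows by the stage at which they first opened and the 10 libraries in columns; a dash marks no peak. Apart from single early peaks at Epcam and Ocln, the filled cells start at DAY6 for 6 genes, at DAY3 for Cldn3 and Esrp1, and at DAY9 for Cldn6, while Esrp2 has peaks in both MEF libraries.

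Against a matched starting point, 7 of the 10 genes had no gene-end peak in either MEF library, and all 7 opened later: 2 at DAY3, 4 at DAY6 and 1 at DAY9. Over all 21883 genes, whatever their MEF state, the first open stage was DAY3 for 3.29%, DAY6 for 4.03%, DAY9 for 3.17% and ESC for 2.6%, and of the 10 members 2, 6, 1 and 0 first opened there. Among the 8016 protein-coding genes without a MEF peak at a gene end, 3.24% first opened at DAY3, 5.83% opened at DAY6, 5.93% at DAY9, and in ESC 5.68%. Most of those genes thus stayed without a peak in both libraries of any stage. Folds are the authors' values within each list, and since depth differed between libraries they are given side by side only as a description.

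Cdh1 (chr8:106603350-106670247) encodes E-cadherin, the main cadherin of epithelial adherens junctions and of stem cell colonies. Its gene-end element, chr8:106603046-106604344, lies over the lower end of the gene. It had no peak in the MEF and DAY3 libraries, folds of 6.98 and 7.90 at DAY6, 11.63 and 10.65 at DAY9, and 8.09 and 6.53 in ESC. All 6 libraries from DAY6 on had the peak and none of the 4 earlier ones did.

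Cdh3, the neighbour of Cdh1 (chr8:106510852-106556911), encodes P-cadherin, which takes part in adherens junctions of basal epithelia and placenta. The element over its lower end, chr8:106510305-106511568, had no MEF or DAY3 peak, 3.82 and 10.05 at DAY6, 9.29 and 9.01 at DAY9, and 9.36 and 4.56 in ESC. It followed the same pattern of libraries as Cdh1, with the DAY6 replicates far apart in fold. With only the stronger 50% of each list, with lists of equal length, or with a deposited −log10 p of 10 or more, it was first open at DAY9. A second element at the upper end, chr8:106556295-106556581, had a single peak, in ESC replicate 1, with a fold of 3.83.

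Epcam (chr17:87635979-87651127, + strand) encodes a cell surface adhesion molecule that binds claudins. Its start lies in the element chr17:87635556-87637250, which had a fold of 3.62 in MEF replicate 1 and no peak in MEF replicate 2. It had 3.65 in DAY3 replicate 1 and no peak in DAY3 replicate 2, then 5.96 and 6.72 at DAY6, 7.15 and 7.60 at DAY9, and 6.69 and 7.90 in ESC. The lowest of the later folds lay above both early ones. Because 1 MEF library had the peak, its opening after MEF rests on the other MEF library: without MEF replicate 2 it was open in MEF, and without DAY3 replicate 2 at DAY3.

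Of the 2 splicing factors, Esrp1 was gained at DAY3, as Cldn3 was, while Esrp2 was called open in MEF. Esrp1 (chr4:11331933-11386783) had no MEF peak, and its gene-end element, chr4:11386402-11388575, lies over the upper end. The strongest peak within 1 kb of that end had folds of 5.38 and 5.65 at DAY3, 5.97 and 3.97 at DAY6, 8.97 and 8.54 at DAY9, and 5.38 and 5.57 in ESC. Elsewhere in the same element the folds reached 5.26 in DAY6 replicate 2 and 7.42 in ESC replicate 1. The gene end had a peak in all 8 libraries after MEF. Where 50% of a peak had to lie in the gene-end stretch it was first open at DAY6.

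Esrp2 (chr8:106130319-106137193) was the only member open in MEF, through the element chr8:106137947-106138679, which lies outside the gene next to its upper end. The strongest gene-end folds of Esrp2 were 4.69 and 2.67 in MEF, 3.33 and no peak at DAY3, 4.01 and 4.63 at DAY6, 5.36 and 5.01 at DAY9, and 6.37 and 5.43 in ESC. The element that lies over the upper end itself, chr8:106136487-106137361, had no MEF peak and was first open at DAY6. These elements of 1 gene end thus opened at different stages. With a −log10 p of 10 or more the gene end was first open at DAY6, and with the stronger 50% of each list at DAY9.

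Cldn3 (chr5:134986214-134987476, + strand) encodes a barrier-forming claudin of tight junctions. Its element, chr5:134985262-134986605, contains the promoter printed above. It had no MEF peak, folds of 5.56 and 5.84 at DAY3, 12.07 and 12.23 at DAY6, 12.10 and 13.64 at DAY9, and 10.36 and 7.26 in ESC. The DAY3 libraries had the lowest folds of the 8 libraries with a peak. With gene ends taken as 2.5 kb, a MEF peak fell inside the Cldn3, Cldn4 and Cldn6 stretches, and these 3 genes counted as open in MEF.

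Cldn4 (chr5:134945123-134946934, - strand), another claudin of tight junctions, had 2 gene-end elements, and both were first open at DAY6. The element over the start, chr5:134946546-134947723, had folds of 3.62 and 4.78 at DAY6, 7.58 and 7.16 at DAY9, and 5.63 and 2.44 in ESC. The element near the 3′ end, chr5:134945170-134945883, had 8.59 and 6.39 at DAY6, 9.90 and 9.54 at DAY9, and 3.97 and 4.22 in ESC. In both elements the DAY9 folds were the highest, and neither had a MEF or DAY3 peak.

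Cldn7 (chr11:69964779-69967886, + strand) encodes a claudin found in tight junctions and on the lateral membrane, where it associates with Epcam. Its start element, chr11:69965093-69965771, had no MEF or DAY3 peak, folds of 3.82 and 5.56 at DAY6, 12.59 and 13.43 at DAY9, and 7.31 and 3.25 in ESC. The DAY9 folds stood well above the others. Like Cdh3, it was first open at DAY9 under each of the 3 ways of keeping stronger peaks. A second element, chr11:69966497-69966997, had a peak in MEF replicate 2 and ESC replicate 2 and was open at no stage.

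Ocln (chr13:100496504-100552718, - strand) encodes occludin, a membrane protein of tight junctions. The element over its start, chr13:100551185-100553581, had a fold of 3.71 in MEF replicate 1, no peak in MEF replicate 2 or at DAY3, 6.64 and 5.43 at DAY6, 8.63 and 7.89 at DAY9, and 7.86 and 6.59 in ESC. The MEF value was the lowest. Without MEF replicate 2 this gene end counted as open in MEF.

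Cldn6 (chr17:23679348-23682446, + strand), a claudin of early embryonic epithelia, differed from the other 9. Its start element, chr17:23679152-23679805, had folds of 2.97 and 3.34 at DAY9 and no peak in the other 8 libraries, ESC included. Loss between DAY9 and ESC was called at 1.76% of all gene ends. The fold needed at background was 2.64 and 2.63 in the DAY9 lists. It was 3.37 and 3.61 in the DAY6 lists, and 3.35 and 2.94 in the ESC lists. A site with the DAY9 folds would thus lie under the limit at DAY6 and near it in ESC. The part of depth in the opening at DAY9 and in the loss in ESC was not tested.

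Gene ends of other junction genes were less uniform. Of 36 other genes of tight junctions, adherens junctions and desmosomes, MEF had 16 open, DAY3 had 17, DAY6 had 27, DAY9 had 31, and ESC had 29. Of the 16 with no MEF peak, 8 first opened at DAY6, 3 at DAY9, 1 in ESC and none at DAY3. Those with neither a MEF nor a DAY3 peak that opened at DAY6 included Cldn9, a claudin gene next to Cldn6, Marveld2, which encodes tricellulin of contacts between several cells, Ppl, which encodes periplakin of desmosomes, and Nectin1, an adhesion molecule of adherens junctions. Among 12 regulators of epithelial identity, MEF and DAY3 each had 4 open, DAY6 had 11, DAY9 had 12, and ESC had 10. The regulators that opened at DAY6 by the same rule were the transcription factor genes Grhl2 and Ovol1 and the protease inhibitor gene Spint1. Ovol1 had no ESC peak.

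The pattern of Cdh1, with a gene-end peak in all 6 libraries from DAY6 on and in none before, was found at 209 genes or 0.955% of all. Cdh3, Cldn4 and Cldn7 had it among the members. In the lists of other genes examined, genes that shared it in all 10 libraries included Cldn9, Marveld2, Nectin1, Ppl, Grhl2 and Spint1, and the pluripotency genes Sall4 and Tdgf1.

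**Figure D2:**
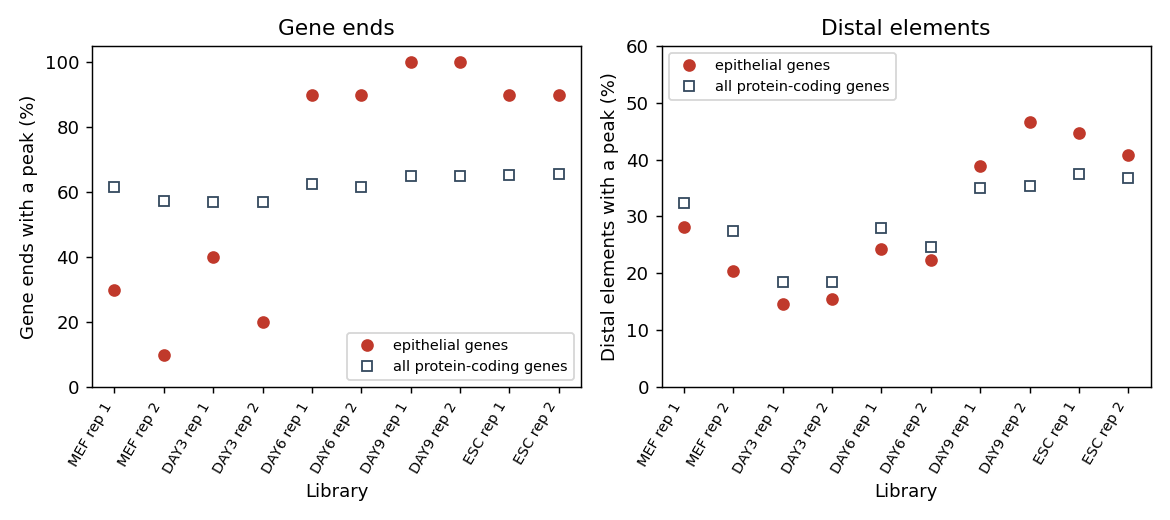
The percentage of gene ends (left) and of distal elements (right) with a peak in each of the 10 libraries, for the 10 epithelial genes (filled circles) and for all protein-coding genes (open squares). The gene-end share of the epithelial genes lies below that of all genes in the 4 MEF and DAY3 libraries and above it in the 6 later ones, while the distal share lies below that of all genes in the 6 MEF, DAY3 and DAY6 libraries and above it in the 4 DAY9 and ESC libraries, by smaller gaps.

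Counted by library, 3 and 1 of the 10 genes had a gene-end peak in MEF, 4 and 2 at DAY3, 9 and 9 at DAY6, 10 and 10 at DAY9, and 9 and 9 in ESC. The shares of all genes were 61.5% and 57.4% in MEF, 57.1% and 57.1% at DAY3, 62.4% and 61.7% at DAY6, 64.9% and 64.9% at DAY9, and 65.4% and 65.7% in ESC. The plot of shares by library sets this step beside the distal elements, of which the share with a peak went from 14.6% in DAY3 replicate 1, beside 18.5% of all distal elements, to 46.6% in DAY9 replicate 2, beside 35.3%.

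Distal elements, more than 1 kb from either end of every protein-coding gene, showed no step of this size between DAY3 and DAY6. Their share with a peak lay below that of all distal elements in each MEF, DAY3 and DAY6 library, as in DAY6 replicate 1 with 24.3% beside 27.9%, and above it in each DAY9 and ESC library, as in ESC replicate 1 with 44.7% beside 37.4%. The windows held 103 of them, some shared by Cdh1 and Cdh3 or by Cldn3 and Cldn4, whose windows overlap. Of the 103, 16 were first open in MEF (15.5%, beside 19.1% of all 131041 distal elements within 30 kb of a protein-coding gene), 6 at DAY3 (5.83%, beside 7.96%), 8 at DAY6 (7.77%, beside 7.19%), 16 at DAY9 (15.5%, beside 10.5%) and 10 in ESC (9.71%, beside 9.68%). The other 47 were open in both libraries of no stage (45.6%, beside 45.5%). These shares lie near the background except at DAY9. Gain between DAY6 and DAY9 was called at 12 elements, or 11.7%, beside 6.08% of all. With lists of equal length the number first open at DAY9 was 8 of 59 elements, or 13.6%. The share of all distal elements was not computed with such lists, so whether a difference from it remains was not tested. In the deposited data the DAY9 lists were longer than the DAY6 lists. The fold needed at background was 2.64 and 2.63 at DAY9 and 3.37 and 3.61 at DAY6.

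**Figure D3:**
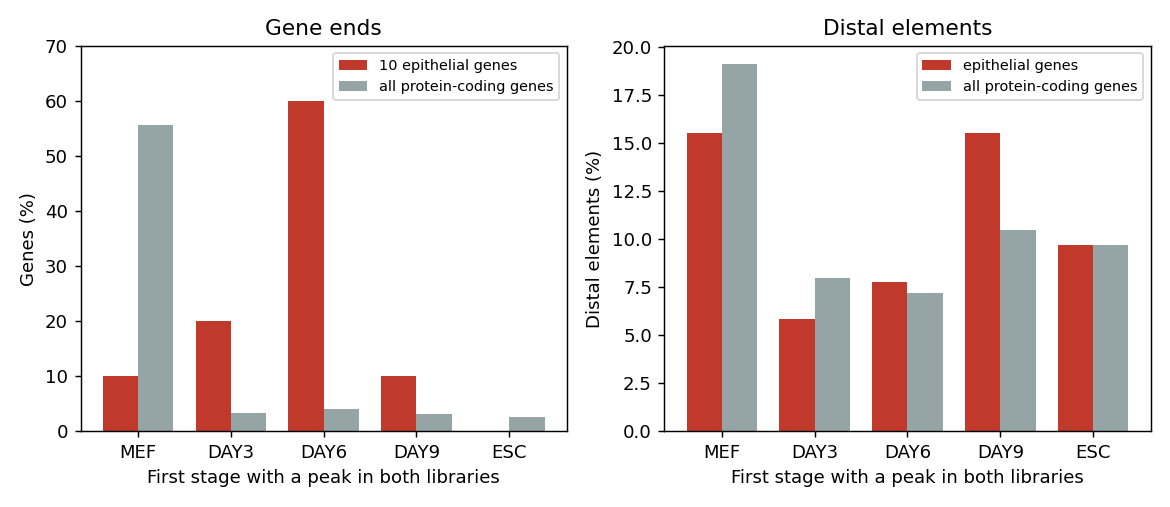
The percentage of gene ends (left) and distal elements (right) first open at each stage, for the 10 epithelial genes and for all protein-coding genes. At gene ends 60% of the epithelial genes stand at DAY6, where all genes have 4.03%, while no distal bar of the epithelial genes differs from its neighbour in this way.

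Of the 34 distal elements that had no MEF peak and were open at a later stage, the first open stage was DAY3 for 6, DAY6 for 5, DAY9 for 13 and ESC for the remaining 10. These are 17.6%, 14.7%, 38.2% and 29.4%, and over all such elements of the genome the shares were 20.3%, 19.4%, 30.2% and 30.0%. The 6 elements that opened at DAY3 lay at Cdh1 (3), Esrp2 (1), Cldn4 (1) and between Cldn4 and Cldn3 (1). In ESC, 4 of the 6 had no peak, 1 had a peak in a single library and 1 had a peak in both. Over all distal elements gained at DAY3 with no MEF peak, 62.6% had no ESC peak, so this loss is near the background.

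At Cdh1, 3 of the 23 distal elements opened before the gene end, at DAY3, while 3 first opened at DAY9, 5 in ESC, 1 in MEF and 11 at no stage. The element with the highest DAY3 fold, chr8:106631509-106633070, lies in the gene 28.9 kb from its lower end. It had no MEF peak, folds of 7.34 and 8.21 at DAY3, 13.05 and 7.97 at DAY6, 10.02 and 10.44 at DAY9, and 3.33 and 4.75 in ESC. These ESC values come from peaks beside the DAY3 peaks within the merged element. The ESC peaks that overlap the DAY3 peaks had folds of 3.06 and 3.47. The element was open 1 stage before the gene end and had its lowest folds in ESC.

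Another early element of Cdh1, chr8:106599447-106600143, lies outside the gene, 3.6 kb before its lower end. It had folds of 6.62 and 6.18 at DAY3, 7.03 and 6.50 at DAY6, 4.47 and 7.39 at DAY9, and 3.27 and no peak in ESC. The third, chr8:106644384-106645541, in the gene, had 3.03 and 3.80 at DAY3, 9.50 and 7.35 at DAY6, 9.04 and 9.15 at DAY9, and no ESC peak. All 3 had no MEF peak, and only chr8:106631509-106633070 was open in both ESC libraries. The distal element with the highest ESC fold, chr8:106619407-106620159, had peaks in all 10 libraries, with folds from 3.54 in MEF replicate 2 to 8.50 in ESC replicate 1. Cdh1 also had 5 distal elements first open in ESC, the most of any member, but it had the most distal elements as well, 23. Of these 5, all but chr8:106633314-106633717 had a peak in at least 1 library of an earlier stage.

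**Figure D4:**
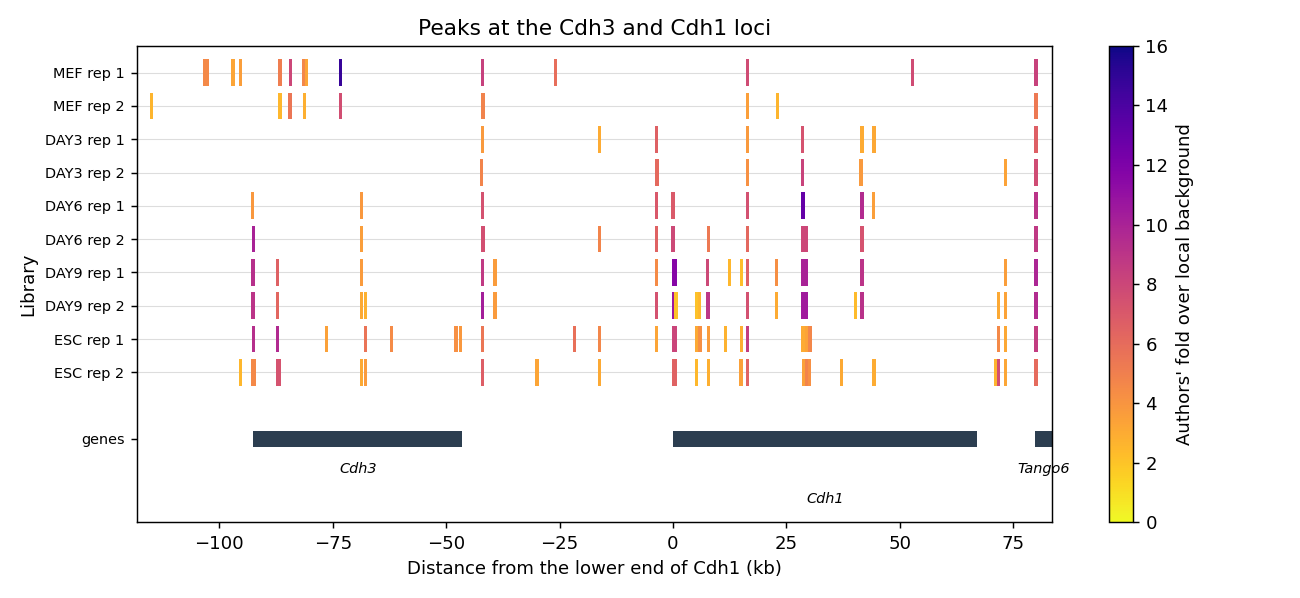
Peaks of the 10 libraries across the Cdh3 and Cdh1 loci, placed by distance from the lower end of Cdh1 in kb and coloured by the authors' fold over local background, with gene bodies below and narrow peaks widened to be visible. A peak inside Cdh1 at 16.4 kb is present in all rows, those at 28.9 and 41.6 kb and the one 3.6 kb before the gene's lower end first appear in the DAY3 rows, the gene-end peak at 0 starts in the DAY6 rows, and a group of peaks inside Cdh3 is present in the MEF rows and absent from the DAY3 rows.

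Cdh3 differed from its neighbour in its distal elements. Of its 19, 5 were first open in MEF and 3 of these had no ESC peak. These were chr8:106518652-106519228 (7.95 and 5.47 in MEF), chr8:106521774-106522339 (4.65 and 2.86) and chr8:106529703-106530369 (14.81 and 7.59). All 3 lie in the gene and had a peak in no library after MEF. They stood open in fibroblasts while both gene ends of Cdh3 had no peak. Cldn3 also had 3 distal elements lost between MEF and ESC. Over the members this loss was called at 9 of 103 distal elements, or 8.74%, beside 11.8% of all. The element with the highest ESC fold at Cdh3, chr8:106515816-106516946, had 5.10 and 2.54 in MEF, no peak at DAY3 or DAY6, 6.62 and 6.31 at DAY9, and 9.60 and 7.33 in ESC. Its MEF peaks do not overlap the DAY9 peaks or the peak of ESC replicate 1. Only the wide peak of ESC replicate 2 joins them, so a single site that closed and reopened is not shown. The element with the highest DAY3 fold, chr8:106560915-106561903, had peaks in all 10 libraries.

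Cldn3 and Cldn4 share 1 early element, chr5:134960427-134961088, 25.5 kb before the start of Cldn3 and 13.8 kb before that of Cldn4. It had no MEF peak, folds of 6.03 and 5.35 at DAY3, 6.18 and 3.45 at DAY6, 3.40 and 2.98 at DAY9, and no ESC peak. For Cldn3 it opened at the stage of the gene end, and for Cldn4 1 stage before. A second element of Cldn4, chr5:134935921-134936856, had 2.51 and 2.47 at DAY3, 5.56 and 5.16 at DAY6, 4.50 and 4.22 at DAY9, and no peak in MEF or ESC. The shared element chr5:134965460-134966964 had 2.90 and no peak at DAY3, 6.86 and 5.01 at DAY6, 10.83 and 10.95 at DAY9, and 8.07 and 7.39 in ESC, and no MEF peak. It lasted into ESC, unlike the earlier pair. The highest ESC fold near Cldn3 was at chr5:135001007-135001842, 15.2 kb after its start, with 15.69 and 7.74 in ESC and 15.11 and 15.40 at DAY9. This element had 7.63 and 9.32 at DAY6 and was present in MEF replicate 1 at 4.98 and in DAY3 replicate 2 at 3.03.

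**Figure D5:**
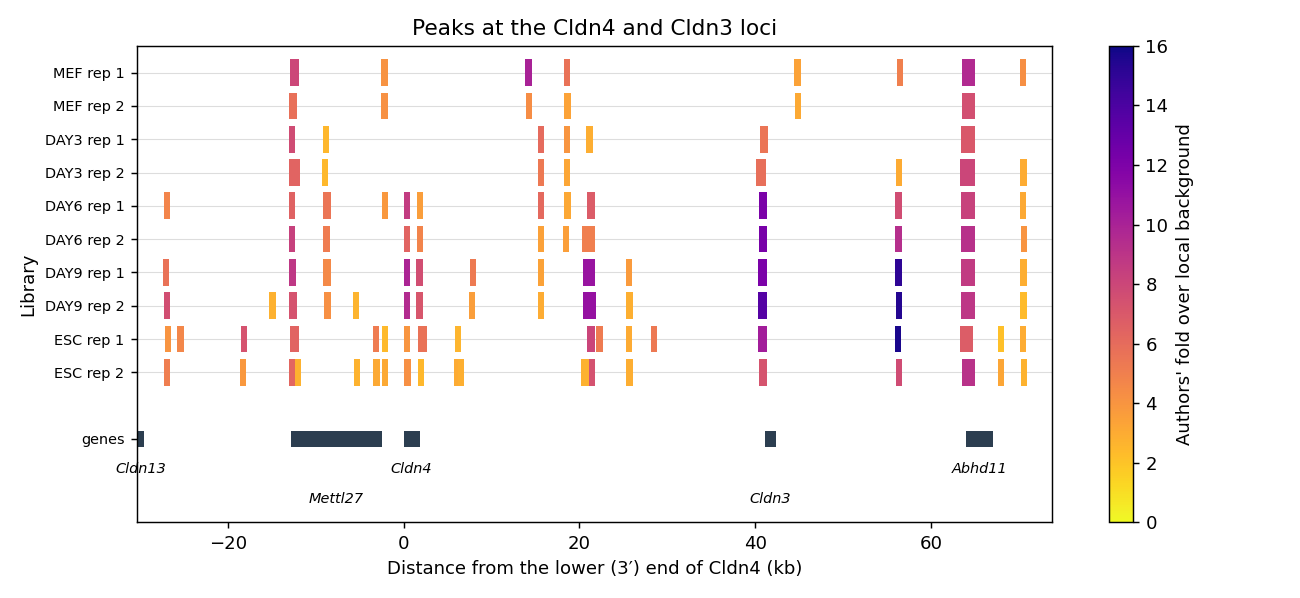
Peaks of the 10 libraries across the Cldn4 and Cldn3 loci, placed by distance from the lower (3′) end of Cldn4 in kb and coloured by the authors' fold, with gene bodies below and narrow peaks widened to be visible. The Cldn3 promoter peaks start in the DAY3 rows and those at Cldn4 in the DAY6 rows, and a peak between the genes is seen in the DAY3, DAY6 and DAY9 rows and in neither the MEF nor the ESC rows.

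Esrp1 had the opposite order. Its distal elements opened at no stage before DAY9, and 3 opened there, all in the gene and none with an ESC peak. The strongest, chr4:11369769-11371233, had 4.21 in DAY6 replicate 2 and 9.13 and 7.19 at DAY9. Esrp2 had 1 distal element gained at DAY3, chr8:106126246-106126976, with folds of 3.65 and 3.51 at DAY3, none at DAY6, 2.88 and 3.94 at DAY9 and no ESC peak. Its element with the highest ESC fold, chr8:106134805-106135580, had 3.93 and 3.74 at DAY6, 9.94 and 10.82 at DAY9, and 4.85 in ESC replicate 1 alone.

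Cldn7 also had its gene end first. It had 3 distal elements, and the one at chr11:69970529-69971100, 6.0 kb after the start, had 4.72 in DAY6 replicate 1, 11.30 and 9.54 at DAY9 and no ESC peak. Near Cldn6 the strongest distal element in DAY3 and in ESC, chr17:23699803-23700551, was open in all 10 libraries, with folds from 8.76 to 16.58. The element chr17:23664475-23665138 had 6.64 and 4.67 at DAY6, 9.70 and 8.78 at DAY9, and 5.10 and 4.27 in ESC, and opened 1 stage before the Cldn6 gene end. At Epcam the highest distal folds in both DAY3 and ESC were at chr17:87612981-87614023, 22.5 kb before the start, which was open in all 10 libraries. At Ocln, chr13:100516371-100517147, in the gene, had 14.80 and 7.62 in MEF and single peaks of 6.96 at DAY6, 2.76 at DAY9 and 3.72 in ESC. Among its distal elements the highest DAY3 fold, 3.19 in replicate 2, was at chr13:100535556-100536516, also in the gene, which was first open at DAY9. Among distal elements, the highest ESC folds at Ocln (8.48, chr13:100560869-100561274) and Esrp1 (3.35, chr4:11400289-11400768) stood in elements with a peak in ESC replicate 1 alone.

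The order of opening was judged for the 7 genes whose gene end had no MEF peak. The gene end was compared with the earliest distal element that also had no MEF peak. At Esrp1 and Cldn3, whose gene ends first opened at DAY3, no such element could come first, since DAY3 was the earliest stage left. A distal element was first at 3 (Cdh1, Cldn4 and Cldn6), both opened at the same stage at 2 (Cdh3 and Cldn3), and the gene end was first at 2 (Esrp1 and Cldn7). Over the 1657 genes of this kind in the genome, a distal element was first at 42.7%, both together at 24.9%, the gene end first at 17.1%, and no gained distal element was found at 15.3%. These genes include those that first opened in ESC, as no member did. For the 467 that first opened at DAY6, like Cdh1, Cdh3, Cldn4 and Cldn7, these shares were 34.5%, 26.1%, 25.7% and 13.7%. The members' order was thus mixed, as it was over all genes, and no order was called particular to them. The number of distal elements was 23, 16 and 12 at Cdh1, Cldn4 and Cldn6, and 19 and 10 at Cdh3 and Cldn3. It was 6 and 3 at Esrp1 and Cldn7, and its part in the order was not tested. Cdh1 kept a distal element first and Esrp1 its gene end first under each of the 18 other settings tried, 10 of which leave out a library. For Esrp1 a distal element could come first only where its gene end opened after DAY3. Cldn7 opened at both kinds of site at the same stage with a −log10 p of 10 or more, with lists of equal length, with the stronger 50% of each list, with a peak in at least 1 library and without DAY6 replicate 2. Cldn6 opened at both kinds of site at the same stage with a −log10 p of 10 or more and with the stronger 50% of each list. With gene ends of 2.5 kb, Cldn3, Cldn4, Cldn6 and Cldn7 could not be judged. Epcam, Esrp2 and Ocln had a MEF peak at a gene end and were not judged.

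The number of peaks in the whole window was tested for a trend over the stages. A two-sided exact permutation test of the Jonckheere-Terpstra type was run on every protein-coding gene with a peak, 21059 in all, on 8 samples, since the DAY3 pair and the DAY9 pair differed by little more than counting noise and were each averaged and counted as 1 sample. The smallest p it can give is 0.000397. No gene of the genome was called at an adjusted p of 0.05 or less (0.0%), and thus no member. At an unadjusted p under 0.05, 4043 genes had a rising count (19.2%) and 414 a falling one (1.97%). The windows of Cdh1, Epcam, Cldn3, Cldn4 and Cldn6 were among those with a higher count at that level, 5 of 10.

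For Cdh1 the windows held 4 and 3 peaks in MEF, 7 and 6 at DAY3, 7 and 8 at DAY6, 11 and 14 at DAY9, and 16 and 16 in ESC (exact p = 0.000397, adjusted p = 0.0801). Its MEF counts lay below those of each later stage, and the share of all genes with this pattern was not counted. For Cldn4 they were 4 and 4, 5 and 4, 9 and 7, 9 and 11, and 13 and 15 at the same stages (exact p = 0.000397, adjusted p = 0.0801). Cldn3 had 6 and 4 peaks in MEF and 9 and 9 in ESC (exact p = 0.00238, adjusted p = 0.0900), and Epcam 5 and 2 in MEF and 8 and 6 in ESC (exact p = 0.00952, adjusted p = 0.116). With lists of equal length the p was 0.257 for Cdh1, 0.131 for Cldn4, 0.481 for Cldn3 and 0.0262 for Epcam in the same exact permutation test. More peaks in both ESC than in both MEF libraries were found at 36.9% of all genes.

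Cdh3 had 10 and 6 peaks in MEF, 1 and 1 at DAY3, 3 and 3 at DAY6, 5 and 6 at DAY9, and 9 and 7 in ESC. Its counts were lowest at DAY3 and overlapped between MEF and ESC (exact permutation p = 0.544 for a trend, adjusted p = 0.760). The median difference of ESC and MEF peak numbers was 2.5 for the 10 genes, 2.25 for the 36 other junction genes, 4.0 for the 12 regulators and 1.0 for all genes tested.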

How the data were processed

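Peak positions and their values were used as deposited by the authors, one list per library, with no header and 10 columns. The deposited fold (a linear ratio over local background), the −log10 p and −log10 q values and the score, which is 10 times the −log10 p, are the authors' own. The submitters' processing notes name Bowtie2 2.3.2, MACS2 2.1.1, deepTools 2.3.6 and mm10, with no role given. No deposited −log10 p was under 5. Peak numbers have gaps, with 58.2% to 75.9% of them kept, by a rule not given in the sources used here.

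Genes came from RefSeq (GRCm38.p6), and peaks of the 10 lists were merged where they overlapped by 1 bp. Members, lists and tests were chosen with earlier results of these data known. Named genes and elements are the members, their gene-end elements, their distal elements with the highest ESC and DAY3 fold, those of the lists that opened at DAY3 or DAY6, and those with the pattern of Cdh1. Other elements were named for their order of opening after values were seen. More than 5 genes had that pattern, so no 5 were picked from them, and 1 gene of the lists that the rule names is not reported here.

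Background pileups were recovered from fold and −log10 p. The noise ratio, 1 for counting error alone, was 1.3 for the DAY3 pair and 1.41 for the DAY9 pair and 3.22 to 6.19 for the others. The p-values come from permuting the stage labels over the 8 samples and were adjusted by Benjamini-Hochberg. The averaged DAY3 and DAY9 pairs add no spread between replicates, and both ESC libraries come from 1 line. Replicate numbers did not pair samples (correlations of deviations from -0.074 to 0.052). The test was tested on simulated data. Python 3.11.15, numpy 2.4.6, pandas 2.3.3 and scipy 1.17.1 were used.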

Additional observations from a re-analysis of the deposited data

How the results depend on the processing

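Results were recomputed under stricter peaks, lists of equal length, the stronger 50% of each list, other distances and overlaps, a peak in at least 1 library, and with each library left out; the cause of each change was not tested. The number of members open at a gene end stayed at 9, 10 and 9 at DAY6, DAY9 and ESC with each library left out, and was 5 at DAY6 with the stronger 50% of each list. At DAY3 it was 4 with at least 1 library, 1 where 50% of a peak had to lie inside, and 2 to 4 with a library left out. In MEF it was 0 with a −log10 p of 10 or more, with the stronger 50% and where 50% of a peak had to lie inside, 3 with at least 1 library, 4 with 2.5 kb, and 1 to 3 with a library left out. Distal elements first open at DAY3 numbered 3 with a −log10 p of 10 or more, 3 with the stronger 50%, 11 with at least 1 library and 6 to 11 with a library left out. At DAY6 they numbered 4, 5 and 5 to 13 under the stricter limit, the stronger 50% and a library left out. At DAY9 they numbered 8 with equal lengths, 10 with the stronger 50% and 13 to 28 with a library left out, of 59, 45 and 89 to 103 elements in place of 103. The share first open at DAY9 was 13.6% with equal lengths and 22.2% with the stronger 50%, beside 15.5%. In ESC they numbered 3 with the stricter limit, 3 with equal lengths, 2 with the stronger 50%, 27 with at least 1 library and 6 to 26 with a library left out. In MEF they numbered 8 with the stronger 50%, 34 with at least 1 library and 16 to 29 with a library left out. The trend test called 3 members (Cdh1, Cldn3 and Cldn4) with 10 separate libraries, beside 7.63% of all genes. With the replicate block and with each library left out it called 0 members, beside 0.0% of all genes. The smallest p of the exact test over all genes was 0.000794 without a MEF or ESC library and 0.00159 without a DAY6 library. A call was harder to reach there, so these 0 members do not show that the result is stable. The Jonckheere-Terpstra statistic, above 0 for a rise, turned to -1 for Cldn6 and -11 for Esrp2 with equal lengths, to -9 for Cldn7 and -13 for Esrp2 per 10000 peaks of the list, and to between -3 and 4 for Esrp2 with a library left out. The order of opening (a distal element first at 3 genes, the same stage at 2, the gene end first at 2), recomputed as an alternative chosen after seeing the data, gave 2, 4 and 2 with a −log10 p of 10 or more, 3, 4 and 1 with equal lengths, 2, 3 and 2 with the stronger 50%, 3, 3 and 1 with at least 1 library, 4, 2 and 2 where 50% of a peak had to lie inside, 1, 1 and 1 with 2.5 kb, 3, 1 and 2 with 15 kb, and 3, 1 and 3 where peaks must cover 50% of an element. With a library left out it was 3, 2 to 3 and 1 to 3. Over single genes, 108 values held, 15 moved, 4 reversed and 3 became stronger under the other settings, and 195 held, 3 moved and 2 reversed with a library left out. That peaks must cover 50% of an element was an alternative chosen after seeing the data, and the planned 50% overlap changes no distal element, since every peak lies inside the element merged from it. Depth limits what a missing peak can show, in particular for the low folds at Cldn6 and the MEF peaks of Epcam and Ocln.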
